A study of Mus musculus with 8 samples.

Results

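C1q high macrophages of the colonic lamina propria were followed in single cells of 8 female mice. They were taken as cells with at least 2000 unique molecular identifiers (UMIs, 1 per captured RNA molecule), at least 399 genes, at most 5% mitochondrial UMIs and no hemoglobin UMI. Of their UMIs, at least 60 per 10000 had to come from C1qa, C1qb and C1qc together. Cells with any UMI of Xcr1, Clec9a, Cd3d, Cd3e or Cd3g, which mark dendritic and T cells, or with 10 or more of the stromal genes Dcn, Col3a1 and Col1a2, were left out. This gave 721 cells of 5947 barcodes, of which 3213 passed the filters of the study and 2189 met every condition but the C1q level. C1q values chose these cells, so C1q levels are given as a description and were not tested.

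All mice were of the CD98ΔCX3CR1 strain, which carries floxed CD98hc (Slc3a2) and, at the Cx3cr1 locus, a tamoxifen-inducible Cre recombinase and EYFP, so both groups had the same alleles. The 4 control mice received corn oil. The 4 mice labelled Cd98 KO (cKO) received 100 µl tamoxifen at 20 mg/ml by daily intraperitoneal injection over 5 days, and cells were taken on day 7. Effects of the drug itself and of the deletion cannot be told apart, since no control mouse received tamoxifen. CD11b+ cells with CCR2 or CD64 on their surface were sorted, about 3000 cells per mouse were loaded in a well of their own, and 3′ ends were sequenced. Control mice are numbered 1 to 4 and cKO mice 5 to 8.

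Macrophages of the gut wall are renewed throughout life from blood monocytes that enter the lamina propria, lose Ly6C and gain major histocompatibility complex (MHC) class II, F4/80 (Adgre1) and CX3CR1. Mature cells take up bacteria and dying cells and express C1q, the recognition molecule of the classical complement pathway. CD98hc is the heavy chain of several amino acid transporters and binds integrins.

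The mice gave 206, 164, 20 and 121 members in the control group and 14, 58, 69 and 69 in the cKO group. Tests across genes used UMIs summed per mouse from mice with at least 20 members, so cKO 5 was left out of them and 3 cKO mice were set against 4 control mice. These 7 sums held between 142775 and 1165390 UMIs. Median UMIs per member were between 5328 and 6647 in control mice and between 5219 and 7118 in cKO mice. Scrublet, a doublet caller, marked 17 of the 721 members, 5 of them among the 14 of cKO 5, and the cells were kept. The libraries shared 25 cell barcodes, and 5 members carried one of them.

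The cells carried the macrophage genes of their label. In control mice, Adgre1 was at 544 ± 245 CPM (UMI counts scaled to 1000000 per mouse; SD, n = 4) in members and at 127 ± 18.6 CPM in the 1468 cells that failed only the C1q level (C1q low cells). Fcrls, a macrophage Fc receptor-like gene, was at 405 ± 159 against 14.1 ± 13 CPM, and Pf4, a chemokine also known from platelets, at 725 ± 461 against 52.0 ± 30.5 CPM. All 3 were higher in members than in C1q low cells of the same mouse in all 4 control mice. The monocyte chemokine receptor Ccr2 went the other way, at 335 ± 125 against 578 ± 181 CPM. Among genes at 100 CPM or more in control members, the 15 with the highest ratio over C1q low cells were, besides the C1q genes, Fcrls and Pf4, the genes Mmp13, Hpgds, Vcam1, Ccl12, Ccl8, Dnase1l3, Ms4a7, Tmem119, Cd81 and Hebp1. Vcam1, an adhesion molecule, had a ratio of 25.1 and Cd81, a tetraspanin of mature macrophages, a ratio of 11.3. These ratios compare cells set apart by the C1q level and were not tested.

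The C1q limit fell within a continuous range. The 42 cells with 50 to 60 C1q UMIs per 10000 had pooled levels of 171 CPM Adgre1, 176 CPM Cd81 and 473 CPM Ly6c2, the gene of the monocyte antigen Ly6C. The 56 members with 60 to 70 had 273 CPM Adgre1, 328 CPM Cd81 and 170 CPM Ly6c2, and the 121 with 70 to 100 had 304, 400.04 and 342 CPM. Members with 200 or more had 887 CPM Adgre1, 1855 CPM Cd81 and 45.2 CPM Ly6c2. These levels pool both groups, whose mix changed from 31 control and 25 cKO cells at 60 to 70 to 177 and 35 at 200 or more. Of the C1q low cells, 1255 had under 10 C1q UMIs per 10000.

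C1q high macrophages made up a smaller share of the eligible cells in cKO mice. They were 42.7%, 54.3%, 44.4% and 32.0% of the cells that met all other conditions in control mice, with a mean of 43.4% ± 9.13 (SD, n = 4). In cKO mice they were 23.7%, 24.2%, 17.9% and 23.2%, with a mean of 22.2% ± 2.91 (SD, n = 4). The groups did not overlap, and the difference was -21.1 percentage points (two-sided exact permutation test, p = 0.0286, the smallest that 4 against 4 mice can give). Fewer macrophages and more of the other sorted cells cannot be told apart in a share.

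**Figure D1:**
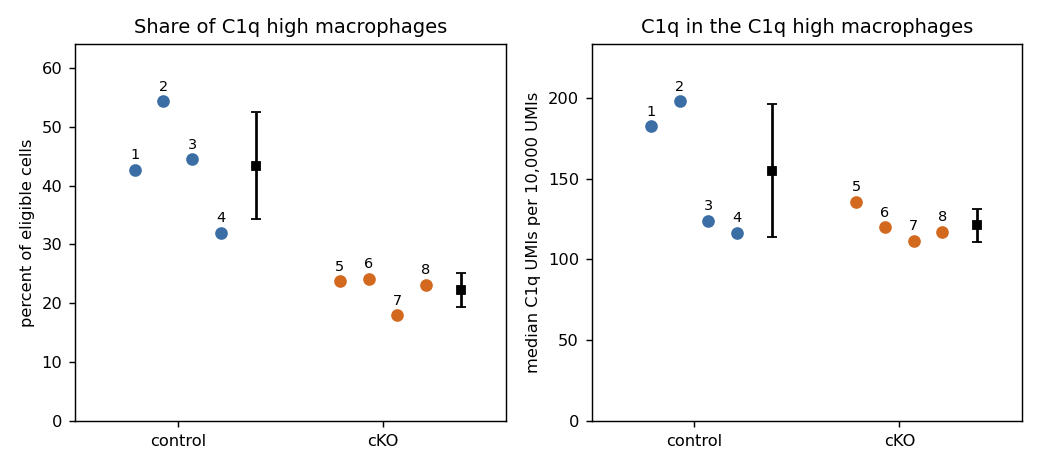
The left panel plots the percent of C1q high macrophages among eligible cells and the right panel the median C1q UMIs per 10,000 UMIs of the members, 1 numbered point per mouse with the group mean ± SD beside them in black. All 4 cKO mice lie below all control mice in share, while C1q of the members in control 3 and control 4 lies within the range of the cKO mice.

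The C1q level within members varied most among control mice. Its median was 182 and 198 UMIs per 10000 in control 1 and control 2, 124 and 116 in control 3 and control 4, and between 112 and 136 in cKO mice. Of the members, 86.4%, 90.2%, 60% and 64.5% had 100 or more in control mice, and between 57.1% and 62.3% in cKO mice. Adgre1 was also higher in the first pair, at 706 and 787 CPM in control 1 and control 2, and at 420 and 262 CPM in control 3 and control 4. In cKO mice Adgre1 was at 278 to 535 CPM, within the control range (log2 fold change -0.48 ± 0.32 SE, edgeR adjusted p = 0.684).

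Slc3a2, the targeted gene (chromosome 19, 8706882 to 8723369 on the minus strand, GRCm38), was at 378, 300, 371 and 582 CPM in members of control mice. It was at 234, 378, 340 and 290 CPM in cKO 5 to cKO 8. The groups overlapped (log2 fold change -0.25 ± 0.24, adjusted p = 0.804), and counts of 3′ ends do not show whether floxed exons were excised. EYFP was at 167, 139, 147 and 85.5 CPM in control mice and at 113, 87.7, 53.7 and 86.9 CPM in cKO mice, which overlapped (log2 fold change -0.80 ± 0.28, adjusted p = 0.336). Cx3cr1, whose promoter drives Cre, gave 57 UMIs in the 4 control sums and 3 in the 3 cKO sums, a pooled ratio of cKO over control of 0.123 (95% exact counting interval 0.0246 to 0.377). Its level was 7.00 to 25.2 CPM in control mice and 0 to 4.24 CPM in cKO mice without overlap, yet the gene did not pass the test over all genes (adjusted p = 0.120).

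Across genes, cKO members differed from control members mainly by higher expression. Of 8491 genes tested, 56 were higher in cKO members (0.660% of the genes tested) and 8 were lower (0.0942%) at an adjusted p under 0.05 (edgeR, quasi-likelihood). The median log2 fold change over all genes tested was -0.01. Of the 64 genes, 56 had no overlap between the 3 cKO mice and the 4 control mice, against 4.00% of all genes tested lying above and 5.05% lying below without overlap. The 64 genes were picked by a test on the same sums, so their lack of overlap is no separate evidence. Leaving out 1 mouse moved these counts to between 22 higher and 4 lower genes without cKO 7 and 114 higher and 65 lower genes without control 4. They were 36 and 3 without control 1, 31 and 2 without control 2, 69 and 13 without control 3 and 25 and 2 without cKO 8, and 22 of the 64 genes passed without each of the 7 mice in turn. These 22 include Ifi44, Irf7, Isg15, Oasl1, Oas1a, Ly6a, Ly6c1, Ly6c2, Cfb, Cndp2, Apol7c and Cela1, while Saa3, Slpi, Klrk1, Oas3, Ass1, Dnase1l3, Msmo1 and Cyp51 each lost the call without at least 1 mouse. The largest increases without overlap were those of Ifi44, Ly6c2, Ly6c1, Saa1, Ifi213, Ly6a, Slfn4, Slpi, Ifi206 and Saa3. The 8 lower genes were B3galnt1, Cela1, Klrb1b, Apol7c, Rcbtb2, Msmo1, Dnase1l3 and Cyp51.

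**Figure D2:**
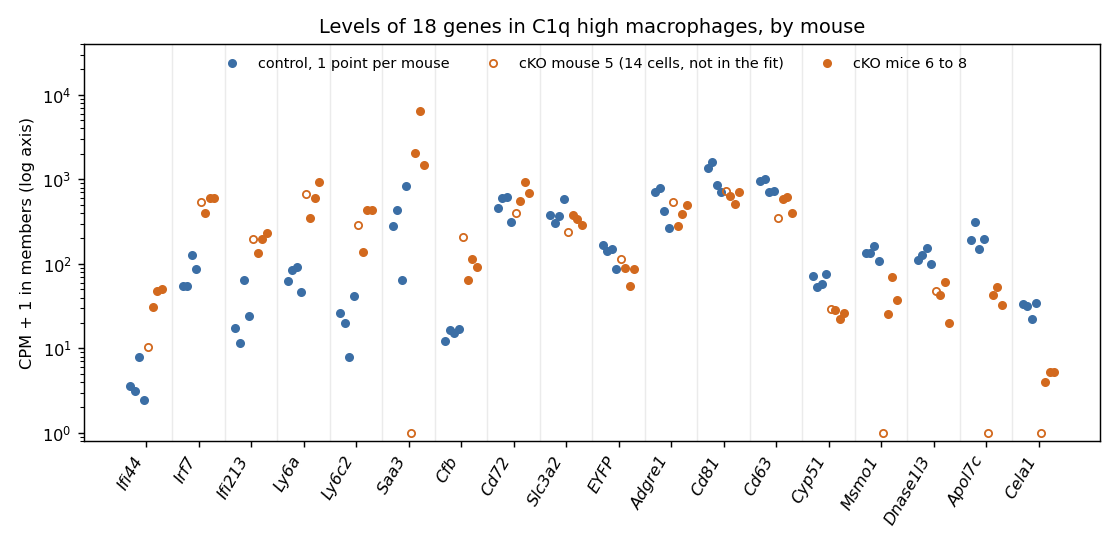
Each point is the level of a gene in the summed members of 1 mouse, in CPM plus 1 on a logarithmic axis, with control mice in blue and cKO mice in orange and the 14 members of cKO 5 as open circles. Points of Irf7, Ly6a, Ly6c2 and Cfb lie higher and those of Apol7c and Cela1 lower in cKO mice 6 to 8 than in all control mice, while those of Slc3a2, Adgre1 and Cd72 overlap.

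Genes on a list of the type I interferon response made up 21 of the 56 increases. The list does not hold every gene that interferon induces, and Ly6a, for example, is not on it. Type I interferons signal through a receptor that switches on antiviral genes, among them Irf7, itself a factor that drives interferon genes. Of 44 genes of the list, 41 were tested, 21 were higher in cKO members and 0 lower at an adjusted p under 0.05. The count depended on single mice: it was 10 without cKO 7 or without cKO 8, 12 without control 1 or without control 2, 19 without cKO 6, 23 without control 4 and 25 without control 3. The median log2 fold change of the list was 1.56, and all 41 values were above 0, from 0.22 for Samhd1 to 4.09 for Ifi44.

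Irf7 (chromosome 7, 141262706 to 141266481, minus strand) was at 54.1, 53.4, 126 and 86.9 CPM in control mice and at 535, 396, 595 and 602 CPM in cKO 5 to cKO 8. Every cKO mouse lay above every control mouse, and the log2 fold change was 2.90 ± 0.28 (adjusted p = 7.13e-05). Ifi44 was at 1.45 to 7.00 CPM in control mice and at 9.38, 30.3, 47.3 and 48.8 CPM in cKO mice (4.09 ± 0.44, adjusted p = 0.000125). Isg15, a ubiquitin-like protein attached to other proteins in antiviral defence, was at 96.1, 72.3, 196 and 158 CPM against 225, 529, 748 and 515 CPM (2.33 ± 0.29, adjusted p = 0.000416). None of the 3 genes overlapped between groups. Oasl1 rose with a log2 fold change of 2.71 ± 0.34 (adjusted p = 0.000416), and Oas3, a sensor of double-stranded RNA, with 2.92 ± 0.58 (adjusted p = 0.0261).

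Several increases came from families of similar genes on the same chromosome. They were 6 genes of the Ifi200 family on chromosome 1 (173468485 to 174031810, GRCm38), with log2 fold changes of 1.58 to 3.25, 5 Oas family genes on chromosome 5 (1.63 to 2.92), 4 Phf11 genes on chromosome 14 (1.88 to 2.17) and 2 Schlafen genes on chromosome 11 (2.48 and 3.17). Reads of such near copies can be split by the counting, so the value of a single copy is less certain than that of its family. Within these families the control mice were unequal. Phf11a was at 147 CPM in control 3, which had 20 members, and at 17.4 to 26.2 CPM in the other control mice, against 127 to 172 CPM in the 3 cKO mice of the test. Ifit3 was likewise at 168 CPM in control 3 and at 4.34 to 16.8 CPM in the other controls, and with 96.7 to 151 CPM in the cKO mice it did not pass (adjusted p = 0.153).

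RefSeq promoters were searched for GAAA, any 2 bases and GAAA again on both strands, a run of the kind bound by interferon regulatory factors, within the 250 bases before the start site. Promoters on GRCm38.p6 were matched for 44 of the 56 higher and 7 of the 8 lower genes. The motif was in 16 of the 44 (36.4%) and in 1 of the 7, against 3.04% of all 27025 promoters and 3.19% of those of the genes tested. Neighbouring family members share promoter sequence and are not independent. The 4 promoters with the most matches are shown, overlapping matches counted separately, because 3 belong to genes that rose and 1 to a gene that fell, with matched letters in capitals and the opposite strand read as TTTC, any 2 bases and TTTC.
Isg15 (chr4:156200819-156201068, minus strand): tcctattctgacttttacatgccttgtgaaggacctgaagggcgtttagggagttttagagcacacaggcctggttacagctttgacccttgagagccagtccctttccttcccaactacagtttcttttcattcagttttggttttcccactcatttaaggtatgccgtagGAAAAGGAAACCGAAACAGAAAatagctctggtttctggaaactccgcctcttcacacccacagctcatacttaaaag
Oas1a (chr5:120907526-120907775, minus strand): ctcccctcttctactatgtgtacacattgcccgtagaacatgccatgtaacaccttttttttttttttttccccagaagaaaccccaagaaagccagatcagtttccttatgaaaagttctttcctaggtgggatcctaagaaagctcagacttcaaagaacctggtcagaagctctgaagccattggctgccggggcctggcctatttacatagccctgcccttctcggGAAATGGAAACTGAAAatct
Oas1g (chr5:120887614-120887863, minus strand): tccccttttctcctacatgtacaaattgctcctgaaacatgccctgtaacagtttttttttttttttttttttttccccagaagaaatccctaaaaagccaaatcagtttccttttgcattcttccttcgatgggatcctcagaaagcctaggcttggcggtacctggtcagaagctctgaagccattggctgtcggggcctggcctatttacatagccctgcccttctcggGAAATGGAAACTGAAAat
Apol7c (chr15:77533316-77533565, minus strand): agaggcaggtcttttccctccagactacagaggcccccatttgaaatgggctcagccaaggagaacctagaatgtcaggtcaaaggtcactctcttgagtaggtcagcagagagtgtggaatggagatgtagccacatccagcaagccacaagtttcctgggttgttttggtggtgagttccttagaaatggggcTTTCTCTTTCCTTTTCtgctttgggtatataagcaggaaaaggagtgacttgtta
Isg15 held 3 overlapping matches, Oas1a and Oas1g 2 each close to the start site, and Apol7c 2 on the opposite strand. Oas1a was at 101 to 175 CPM in control mice and at 312 to 445 CPM in cKO 6 to cKO 8 (1.63 ± 0.23, adjusted p = 0.00121). Apol7c, of the apolipoprotein L family, fell. The matches describe letters in these windows, and no binding was measured.

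The Ly6 genes on chromosome 15 rose, among them the marker of newly arrived monocytes. Ly6c2 (75108158 to 75111970, minus strand) was at 24.9, 18.9, 7.00 and 40.6 CPM in control members and at 291, 136, 432 and 430 CPM in cKO 5 to cKO 8. The log2 fold change was 3.73 ± 0.39 (adjusted p = 0.000113), with no overlap. Ly6a, known as Sca-1 and induced by interferon, was at 44.9 to 91.1 CPM in control mice and at 666, 351, 608 and 918 CPM in cKO mice (3.25 ± 0.31, adjusted p = 7.13e-05). Ly6c1, a close copy of Ly6c2, rose with 3.73 ± 0.56, Ly6i with 2.48 ± 0.45 and Ly6e with 0.95 ± 0.20. Members with a Ly6c2 UMI were 9.59% in control and 54.3% in cKO mice, and 4.5% (95% Wilson interval 3.02 to 6.66) and 31.0% (25.1 to 37.5) after every cell was thinned to 2000 UMIs. Full-depth cells with 10 or more UMIs of the 3 stromal genes, 64 in control and 15 in cKO mice, gave 51.6% and 60% unthinned. Their median depth was 4984 and 5817 UMIs, and after thinning they gave 21.9% and 46.7%. The shares of members were not above theirs and are not read as expression. Hp was rarer in these stromal marker cells, at 4.69% and 6.67% unthinned. Full-depth cells with a T cell, Xcr1 or Clec9a UMI gave 6.03% and 20% for Ly6c2 after thinning. Whether stromal marker cells made or picked up this RNA was not tested. By CPM, C1q low cells differed between conditions as well (log2 fold change 2.68). On the log2 scale the increase was larger in members (difference 1.09 ± 0.28, adjusted p = 0.0219). That scale compares ratios, and control members started from only 7.00 to 40.6 CPM. The 1255 C1q low cells with the least C1q had 1712 CPM, pooled over both groups. A larger ratio in members therefore does not mean a larger rise in CPM. CPM counts the same UMIs as the shares, so the same caution holds for it.

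Other monocyte markers moved less evenly. Of 9 monocyte genes 7 were tested, and Ly6c2 was the only one that passed. The median log2 fold change was 1.63. Plac8 was at 133 to 802 CPM in control and at 868 to 1473 CPM in cKO mice (1.63 ± 0.40, adjusted p = 0.0837), and Hp at 5.24 to 182 against 140 to 312 CPM in the tested mice (1.71 ± 0.66, adjusted p = 0.406). Ccr2, at 481, 291, 189 and 379 CPM in control mice and 300, 266, 331 and 348 CPM in cKO mice, overlapped (-0.09 ± 0.26, adjusted p = 0.950). The summed level of the 9 genes in members was 562 to 1527 CPM in control and 1643 to 2539 CPM in the tested cKO mice, and 3102 to 5303 and 10440 to 13417 CPM in C1q low cells.

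Members with no UMI of Ly6c2, Hp, Chil3 or Ccr2 were also fitted alone, a much smaller set of 9 to 80 cells per control mouse and 1 to 10 per cKO mouse, over all 8 mice. Among them 16 genes were higher and 6 lower in cKO members, 5 of 25 interferon genes tested passed, and the median of the list was 1.05 on the log2 scale, where the median of all genes tested was shifted to -0.33.

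Levels were also read by C1q range within members, as a description. Irf7 was at 72.6, 69.2 and 56.3 CPM in control members with 60 to 100, 100 to 200 and 200 or more C1q UMIs per 10000, and at 557, 573 and 451 CPM in cKO members of the same ranges. Ly6c2 was at 76.7, 15.3 and 15.7 CPM in control and at 481, 310 and 169 CPM in cKO members. Irf7 and Ly6c2 were thus higher in cKO members in all 3 ranges. Ly6a was at 40.4, 84.5 and 53.5 CPM against 612, 625 and 840 CPM. With 100 or more C1q UMIs per 10000, 61 genes were higher and 14 lower in cKO members. That fit also left out control 3, which had 12 such members.

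**Figure D3:**
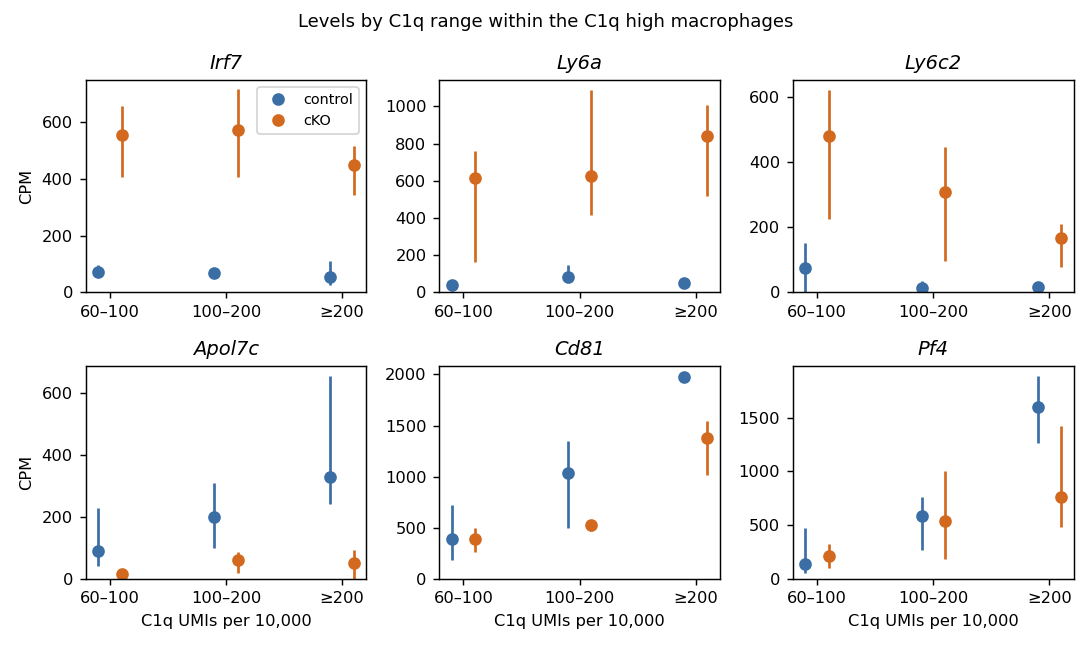
Pooled levels in CPM of 6 genes are plotted against the C1q range of the members, with control in blue and cKO in orange and vertical lines from the lowest to the highest mouse with at least 5 cells in the range. Irf7, Ly6a and Ly6c2 lie higher in cKO members in each range, and Cd81 and Pf4 climb with C1q in both groups.

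Genes outside the interferon and Ly6 groups rose as well. Saa3, an acute phase protein of the serum amyloid A family, was at 281, 432, 63.0 and 827 CPM in control mice and at 2027, 6457 and 1484 CPM in cKO 6 to cKO 8 (3.04 ± 0.55, adjusted p = 0.0121), while cKO 5 had no UMI in its 14 members. Saa3 was also among the most uneven genes from cell to cell, with 56.6% of its UMIs in 10 cells. Cfb, factor B of the alternative complement pathway, was at 11.2, 15.7, 14 and 15.9 CPM in control mice and at 206, 63.5, 114 and 91.2 CPM in cKO mice without overlap (2.71 ± 0.30, adjusted p = 0.000155). Cfb was the only one of 9 complement genes tested that passed, C1q aside.

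Slpi, a protease inhibitor of mucosal surfaces, rose with 3.15 ± 0.53 (adjusted p = 0.00667). Ass1, which makes argininosuccinate in the arginine cycle, rose with 2.53 ± 0.46 (adjusted p = 0.0109), and Gm5424 had nearly the same values in each mouse, so the counts of this pair are uncertain. Cndp2, a cytosolic dipeptidase, rose from 30.4 to 49.0 CPM to 99.8 to 157 CPM in the tested mice (2.01 ± 0.25, adjusted p = 0.000416). Klrk1, the receptor NKG2D, rose from 5.24 to 21.0 CPM to 36.3 to 40.3 CPM (2.24 ± 0.38, adjusted p = 0.00771). Of 15 MHC class I genes tested, 4 were higher, the nonclassical H2-Q4, H2-Q6, H2-Q7 and H2-T22 on chromosome 17 (1.10 to 1.76), and the median of the list was 0.34.

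The 8 lower genes were few, and each lay lower in the 3 tested cKO mice than in all control mice. Apol7c (chromosome 15, 77524852 to 77533316, minus strand) was at 190, 312, 147 and 197 CPM in control mice and at 0, 42.4, 51.6 and 31.8 CPM in cKO 5 to cKO 8 (-2.34 ± 0.30, adjusted p = 0.000494). Cela1, a serine protease of the elastase family, was at 32.6, 30.4, 21.0 and 33.3 CPM against 0, 3.03, 4.30 and 4.24 CPM (-2.89 ± 0.45, adjusted p = 0.00369). Dnase1l3, a nuclease that digests DNA in vesicles and cell debris, was at 99.9 to 154 CPM against 19.1 to 60.2 CPM in the tested mice (-1.5 ± 0.32, adjusted p = 0.0412). In the C1q ranges, Apol7c was at 88.8, 200.3 and 329 CPM in control and at 15.9, 61.6 and 51.6 CPM in cKO members. Klrb1b, a lectin-like receptor, fell by 2.46 and Rcbtb2 by 1.53 on the log2 scale. B3galnt1, a glycosyltransferase, gave 46 UMIs in the control and 1 in the cKO sums, a ratio of cKO over control of 0.0506 (95% exact counting interval 0.00126 to 0.297; adjusted p = 0.0412).

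Msmo1 and Cyp51, enzymes of cholesterol synthesis, fell by 1.52 ± 0.30 and 1.36 ± 0.29 on the log2 scale (adjusted p = 0.0261 and 0.0407). Both are outside the list of cholesterol and lipid genes, of which 18 were tested and 0 passed, with a median of -0.13. Of its synthesis genes, Hmgcs1 was at 42.0 to 74.7 CPM in control and 24.2 to 33.9 CPM in tested cKO mice (-1.17 ± 0.28, adjusted p = 0.0718), Sqle at -1.31 ± 0.39 (adjusted p = 0.212) and Idi1 at -1.17 ± 0.28 (adjusted p = 0.0795). In the tested mice Hmgcs1, Sqle and Idi1 lay lower without overlap, as 5.05% of all genes did. Apoe, the lipid carrier, was at 26688, 38375, 22112 and 15223 CPM in control and at 25095, 18678, 17243 and 14381 CPM in cKO mice, which overlapped (adjusted p = 0.503).

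**Figure D4:**
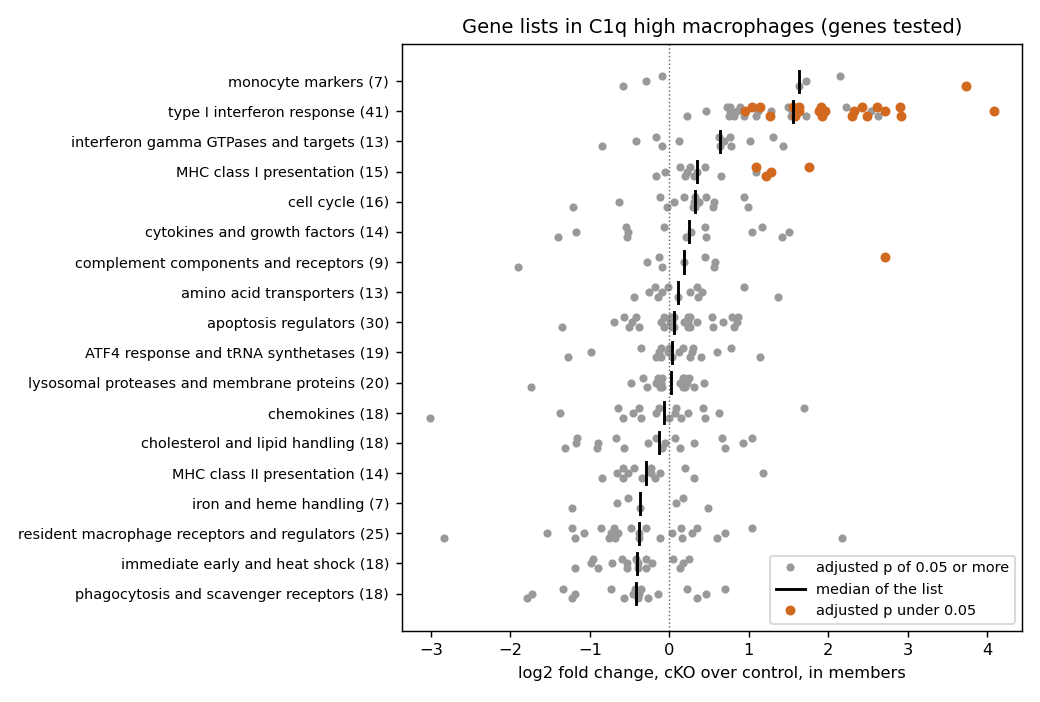
Each point is the log2 fold change, cKO over control, of a gene tested in members, grouped by list with the number of genes tested, and the black bar is the median of the list. Points past an adjusted p of 0.05 are orange, and 21 of them lie in the interferon list, whose median is 1.56.

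Genes of mature macrophages did not pass the test. On simulated counts the test recovered 0 of 200 genes changed 2-fold, so genes that did not pass, in this and the other lists, may still differ. In the data a change of that size could pass, as for Ly6e (0.95, adjusted p = 0.0381). Of 28 receptors and regulators of resident macrophages 25 were tested, 0 were higher and 0 lower at an adjusted p under 0.05, and the median log2 fold change was -0.38, with 6 genes lower and 2 higher without overlap (5.05% and 4.00% of all genes tested). Cd81 was at 1365, 1619, 854 and 710 CPM in control and at 731, 632, 516 and 704 CPM in cKO mice (-0.86 ± 0.27, adjusted p = 0.243). Cd63, a lysosomal tetraspanin, was at 954, 1001, 700.4 and 731 CPM against 347, 578, 610 and 403 CPM (-0.65 ± 0.22, adjusted p = 0.334). Neither gene overlapped between the tested mice, and Cd81 in cKO 5 lay above control 4. Mrc1, the mannose receptor, was lower without overlap (-0.73 ± 0.23, adjusted p = 0.271), Csf1r, the growth factor receptor of macrophages, likewise (-0.38 ± 0.19, adjusted p = 0.585), and Cd72 had a log2 fold change of 0.59 ± 0.25 (adjusted p = 0.483). Fcrls and Pf4 had -1.16 ± 0.31 (adjusted p = 0.134) and -0.69 ± 0.37 (adjusted p = 0.612).

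Cd4 and Timd4 mark long-lived macrophages of the gut. Of control members 13.7% had a Cd4 UMI, and 6.46% (95% Wilson interval 4.64 to 8.93) after thinning to 2000 UMIs, with 0 to 13.4% per mouse, against 0.431% and 0.287% (0.0788 to 1.04) of C1q low cells of control mice. Of cKO members 6.19% had one, and 2.86% (1.32 to 6.09) after thinning. Cd4 was at 38.6, 89.1, 7.00 and 13 CPM in control and at 18.8, 33.3, 8.6 and 6.36 CPM in cKO mice, which overlapped (adjusted p = 0.503). Timd4 was found in 5 of 511 control and 0 of 210 cKO members. Its share was 0.978% in control members and 2.01% in C1q low cells of control mice (median 5393 and 5262 UMIs), and 0.587% and 0.431% after thinning, while 0 of 64 stromal marker cells had one. For cKO members, finding none of 210 leaves room for 1.43% with a Timd4 UMI and does not limit how many express the gene, and no difference was detectable at this depth.

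MHC class II genes and their chaperone Cd74 present antigen to T cells. Of 14 genes tested 0 passed in either direction, with a median of -0.29. Cd74 was at 37115, 36162, 29753 and 32275 CPM in control and at 31959, 29447, 32506 and 29137 CPM in cKO mice (-0.12 ± 0.17, adjusted p = 0.879). H2-Ab1 was at 13532 to 19392 CPM against 13880 to 15801 CPM in the tested mice (-0.23 ± 0.18, adjusted p = 0.748). Both genes overlapped between the groups.

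No gene of the remaining lists passed. Among 18 genes of phagocytosis and scavenging the median was -0.42, with Cd68 at 0.22 ± 0.22 and Msr1 at 0.34 ± 0.30. Among 18 immediate early and heat shock genes it was -0.41, with 8 genes lower without overlap (5.05% of all genes tested), and their summed level was 20930 to 22535 CPM in control and 13987 to 17168 CPM in the tested cKO mice. Of these, Fos was at 3320 to 4406 CPM in control and 2330 to 2792 CPM in the tested cKO mice, but at 4839 CPM in cKO 5 (-0.53 ± 0.18, adjusted p = 0.332), and Junb had -0.54 ± 0.22. Ier2, Atf3 and Hspa1a came closest to the threshold (adjusted p = 0.0578, 0.0578 and 0.0583). The medians were 0.02 for 20 lysosomal genes (Ctss at 0.31 ± 0.19, Psap at -0.09 ± 0.18), -0.07 for 18 chemokines (Cxcl2 at 0.08 ± 0.33, Ccl4 at -0.39 ± 0.26) and 0.25 for 14 cytokines (Il1b at 0.28 ± 0.35, Il1rn at 1.17 ± 0.37).

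Apoptosis genes and genes of amino acid supply were close to the median of all genes. Of 30 apoptosis regulators 0 passed, with a median of 0.06. Bcl2l11, which encodes the death factor BIM, was at 54.9, 44.0, 112 and 84 CPM in control and at 37.5, 72.6, 75.2 and 80.6 CPM in cKO mice (0.23 ± 0.29, adjusted p = 0.867). Bcl2a1b and Bcl2a1d, survival factors with near copies, had 0.24 ± 0.22 and 0.26 ± 0.24. Fas was at 0 to 13.6 CPM in control and 6.45 to 18.8 CPM in cKO mice, with a log2 fold change of -0.47 in the tested mice (adjusted p = 0.845). Of 13 amino acid transporters the median was 0.10, with Slc7a11, a partner of CD98hc, at 0.10 ± 0.48, and of 19 genes of the ATF4 response, which starts when amino acids are short, it was 0.03, with Atf4 at -0.35 ± 0.24 and Atf3 at -0.98 ± 0.23 (adjusted p = 0.0578). The cytokine Osm had -0.07 ± 0.27 and Tnf -0.52 ± 0.32 (adjusted p = 0.971 and 0.653).

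Interferon gamma targets, cell cycle and iron genes likewise held no gene past the test. Of 13 guanylate-binding and related genes the median was 0.63, with Cxcl10 at 0.63 ± 0.30 and Irf1 at -0.85 ± 0.27. Of 16 cell cycle genes it was 0.32, with Hmgb2 at 0.46 ± 0.24 and Pcna at 0.31 ± 0.27, and 1.37% of control and 1.43% of cKO members had a Top2a UMI after thinning (3.52% and 3.81% before). Of 7 iron and heme genes it was -0.37, with the ferritin chains Fth1 and Ftl1 at 0.48 ± 0.21 and 0.17 ± 0.18.

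Markers of other cells were low in members except for plasma cell RNA, in part through the rule that chose the members. It required Xcr1, Clec9a, Cd3d, Cd3e and Cd3g at 0 and Dcn, Col3a1 and Col1a2 together under 10 UMIs per cell. For these genes a low level is no separate finding. The summed level of 8 dendritic cell genes was 63.0 to 136 CPM in control and 61.5 to 94.6 CPM in tested cKO members, with Batf3 at 42.0 to 118 CPM in control mice and Xcr1 and Clec9a at 0 by the rule. Stromal genes summed to 43.8 to 84 CPM in control and 3.03 to 50.9 CPM in tested cKO mice, and 6 mast and endothelial genes to 27.5 to 84 and 29.7 to 73.1 CPM, with Cpa3 and Fcer1a at 0. Epithelial genes summed to at most 5.79 CPM and neutrophil genes to at most 8.48 CPM in these mice, with S100a9 at 0. Lymphoid and plasma cell genes summed to 91.1 to 659 CPM in control and 161 to 4129 CPM in cKO mice. Jchain, the joining chain of antibodies, was at 56.0 to 607 CPM in control mice and at 403, 4066, 131 and 240 CPM in cKO mice (adjusted p = 0.372), and Cd79b was at 15 to 46.1 CPM. Jchain reached 1292 UMIs in a single member and varied most from cell to cell on average, through control 1 and cKO 6.

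Averaged over 7 mice, members of a mouse differed among themselves most in Jchain, Apoe, Saa3, Ccl5, Cd74, Cxcl2, Lyz2, Actb, Ifitm1 and Il1b. The ranking used the ratio of the variance over that of Poisson sampling at each cell's depth. The ratio was 200 for Jchain, 150 for Apoe and 145 for Saa3, where the median over 8447 genes was 1.05. Jchain owed its average to control 1 (198) and cKO 6 (1188), and its ratio was 0.991 to 4.38 in the others of these mice. For Apoe it was 106 to 260 in every one of the 7. For Jchain 65.4% of UMIs, for Saa3 56.6% and for the chemokine Ccl5 60% lay in 10 of 707 members. Apoe was found in 99.7% of members with 7.84% of its UMIs in 10 cells, so that it differed in level rather than in detection. Ccl5 was at 28.0 to 354 CPM in control and at 278 to 1307 CPM in the tested cKO mice (1.70 ± 0.48, adjusted p = 0.178). Lyz2, lysozyme, was at 10183 to 17440 CPM against 6589 to 9310 CPM without overlap (-0.75 ± 0.22, adjusted p = 0.183), and Actb had 0.32 ± 0.21.

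Whether the cKO effect differed between C1q high macrophages and C1q low cells was tested within mice as the interaction of condition and cell class. Of 10461 genes tested, the effect was more positive in members for 84 (0.803%) and more negative for 114 (1.09%). Without cKO 7 these were 44 and 63, and without cKO 8 they were 43 and 61. Of the 64 genes changed in members, 4 differed between the classes at an adjusted p under 0.05, Ly6c2, Klrk1, Ifitm3 and Htra3. An unadjusted p under 0.05 was found for 22 of the 64, and for 1246 of all 10461 genes tested. The 64 genes were picked on member sums that also enter this test, so these 2 counts are no separate evidence. On simulated counts this test recovered 49 of 200 genes changed 4-fold and 0 of 200 changed 2-fold, so genes that did not pass may still differ. The simulated sums shared no effect of the mouse, so these rates need not hold for the data. In the data, smaller differences passed for some genes, such as B2m (-0.49, adjusted p = 0.0317). Irf7 had 2.90 ± 0.28 in members and 2.88 ± 0.24 in C1q low cells (difference 0.08 ± 0.20, adjusted p = 0.933).

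Klrk1, Ifitm1, Ckb, H2-Ab1 and H2-Eb1 led the genes with a more positive effect in members. H2-Ab1 had a log2 fold change of -0.23 ± 0.18 in members and -1.14 ± 0.15 in C1q low cells (difference 0.94 ± 0.14, adjusted p = 1.28e-05). For Klrk1 these were 2.24 ± 0.38 and -0.98 ± 0.26 (difference 3.24 ± 0.40, adjusted p = 5.34e-07). Ninj1, Cd14, Ecm1, Cxcl2 and Mmp13 led those with a more negative effect. Cd14, the lipopolysaccharide co-receptor, was at 769, 859, 918 and 1364 CPM in control and at 806, 799, 1664 and 615 CPM in cKO members, and its log2 fold change was 0.11 ± 0.30 in members and 1.48 ± 0.24 in C1q low cells (difference -1.43 ± 0.17, adjusted p = 4.26e-07).

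**Figure D5:**
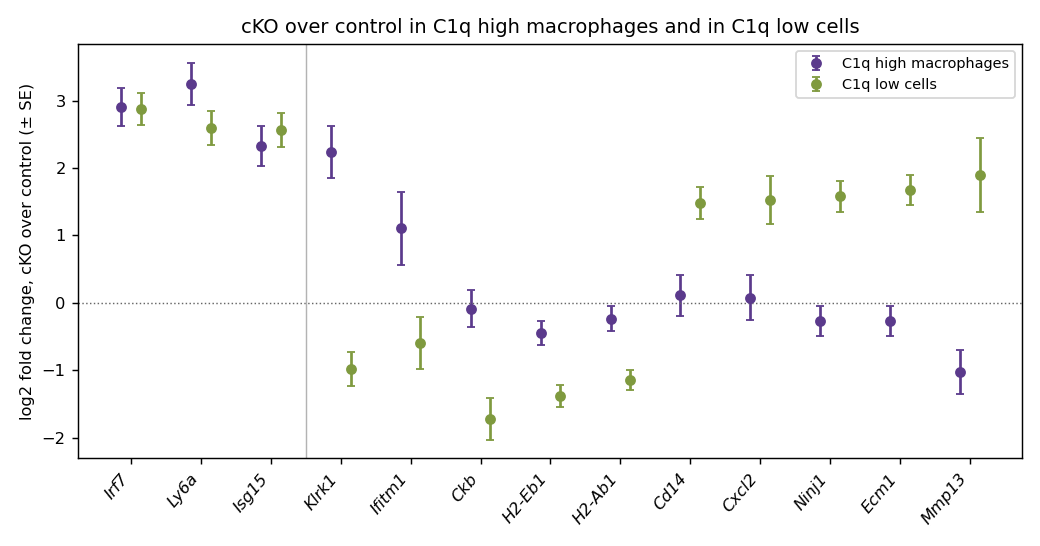
Log2 fold changes, cKO over control, ± SE are plotted for C1q high macrophages in purple and C1q low cells in green of the same mice. For the 3 interferon-responsive genes on the left the values are similar, at 2.90 and 2.88 for Irf7, while the 10 genes on the right are those with the smallest p of the difference in each direction.

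The make-up of the C1q low cells moved with condition, and its part in these differences was not tested. Their 8 dendritic cell genes summed to 694 to 806 CPM in control and 99.9 to 199 CPM in cKO mice, and their 19 cell cycle genes to 754 to 1249 and 377 to 479 CPM. When C1q low cells were restricted to those with at least 10 C1q UMIs per 10000, 10 genes were more positive and 27 more negative in members. Only 20 to 52 C1q low cells per mouse were left in this fit, and control 3, with 5, was left out. Fewer cells alone can lose calls, and this was not told apart from a change of make-up. The difference of H2-Ab1 was then 0.33 (adjusted p = 0.855), that of Klrk1 2.23 (adjusted p = 0.187), that of Ckb 0.93 (adjusted p = 0.652) and that of H2-Eb1 0.44 (adjusted p = 0.572), and none of these 4 passed. Cd14, Cxcl2, Ecm1, Ifitm1, Mmp13 and Ninj1 kept the call, with differences of -0.87, -0.98, -2.01, 1.45, -3.48 and -1.21.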

How the data were processed

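Cells of 8 mice were profiled by 10x Single Cell 3′ v2 RNA-seq, 1 well per mouse. The values are raw UMI counts per gene and cell, deposited by the authors as 1 matrix of 16889 genes and 5947 barcodes. Per the submitters' processing notes, Cell Ranger, STAR 2.5.3a and mm10 were used, and the EYFP sequence was added. The barcodes held all cells before the filters of the study, which were applied again here (at least 631 UMIs and 399 genes, at most 5% mitochondrial UMIs, no hemoglobin UMI). Depth per mouse is given in the report, and intervals and limits for counts of 0 cover counting error only.

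The members and gene lists were chosen with earlier results of these data known. UMIs of members were summed per mouse with at least 20 members and tested with edgeR 4.0.16 (TMM, quasi-likelihood, Benjamini-Hochberg adjustment) in R 4.3.3, on genes above 1 CPM in at least 3 sums and found in at least 20 members. The difference of effects between members and C1q low cells was fitted with the mouse as a block. SE is that of the log2 fold change, and CPM is the summed UMI count scaled to 1000000 per mouse. Shares were compared by exact permutation over mice. Doublets were called per mouse with Scrublet in scanpy 1.11.5 and kept. Named genes were those the study names, the label markers, the 10 largest changes without overlap per direction, up to 4 called or else the 2 highest genes per list, the 5 leading differences between cell classes per direction and the 10 most variable genes. Genes named beyond these, and the chromosomal families, were chosen after their values were seen. On simulated counts with 200 changed genes among 8491, 129 changed 4-fold and 0 changed 2-fold were recovered, with 6 wrong calls in the 4-fold run. These counts were drawn at a fixed dispersion that was not estimated from the data and without a shared effect of the mouse, so recovery in the data can differ. DESeq2 1.42.0, limma 3.58.1 and other filters and cell limits were tried as alternatives. Some items are not reported here.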

Additional observations from a re-analysis of the deposited data

Results flagged for a closer look

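Of 96 groups of 4 mice examined for a value far from the others, 7 had one, where chance gives about 1 in 20. Gene levels were examined in control mice only, and the share of members in both groups. Control 3, with 20 members, was low for Cd68 (308 CPM) and H2-Ab1 (13532 CPM) and high for Ifi206 (70.04 CPM). Control 2 was high for Irf1 (132 CPM), and control 4 for Ly6c1 (7.24 CPM) and Sparc (27.5 CPM). The share of members was lowest in cKO 7 (17.9%).

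The cKO effect differed between C1q high macrophages and C1q low cells of the same mice for 27 named genes, by edgeR's interaction test at an adjusted p under 0.05. Some of these genes were named because they led this same test, so their count does not show how common such differences were. Over all 10461 genes tested, 84 had a more positive and 114 a more negative effect in members (0.803% and 1.09%). Values for the 27 genes are the effect in members minus that in C1q low cells, on the log2 scale. The cKO effect was more positive for Ccr7 (3.92), Klrk1 (3.24), Ifitm1 (1.97), Ckb (1.73), Ly6c2 (1.09), H2-Eb1 (0.99), Hmgb2 (0.98), H2-Ab1 (0.94) and Cd74 (0.83). Among chemokine, cytokine and receptor genes it was more negative for Ccl8 (-1.81), Ccl12 (-1.75), Cxcl2 (-1.52), Cd14 (-1.43), Msr1 (-1.36), Osm (-1.18), Tnf (-1.09), Il1rn (-0.99) and Csf1r (-0.88). It was also more negative for Mmp13 (-3.04), Vcam1 (-2.73), Ecm1 (-1.94), Ninj1 (-1.82), Slc7a11 (-1.12), Lyz2 (-0.98), Ms4a7 (-0.96), Npc2 (-0.73) and Fth1 (-0.61).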

How the results depend on the processing

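The share of members was lower in cKO mice by 10.7 to 21.6 percentage points under other denominators, C1q limits and depths (exact permutation p = 0.0286 each), and the difference was -17.5 to -24.9 points without 1 mouse (exact p = 0.0571, the smallest possible there). The 56 genes higher in cKO members became 91 with the likelihood ratio test, 134 with no filter on low counts, 31 with filterByExpr, 16 in members without monocyte UMIs and 22 to 114 without 1 mouse. The 8 lower genes became 38, 78 and 5 under the first 3 of these, 13 and 14 at C1q limits of 30 and 100, 5 from 1000 UMIs, 15 without Scrublet calls and 2 to 65 without 1 mouse. The minimum of 20 members was applied anew to each set of cells, so the mice changed as well. Control 3 dropped out at the C1q limit of 100 (12 members) and without Scrublet calls (19 members). In turn, cKO 5 came in at the C1q limit of 30 (20 members) and from 1000 UMIs (21 members). Leaving out control 3 alone gave 69 higher and 13 lower genes. The 198 differing effects became 93 with DESeq2 and 104 to 255 without 1 mouse. They became 37 with C1q low cells of at least 10 C1q UMIs per 10000, which were far fewer and left out control 3. The causes were not tested. Of 131 single genes under all alternatives, 298 values lost and 39 gained a call, 2360 stayed on their side of the threshold and 0 reversed. Control mice could not be paired with cKO mice because the labels name no pairs or litters. Members of control 3 and cKO 5 were few, at 20 and 14 cells, which limits low genes there.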
